A study of Mus musculus with 16 samples.

Results

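The genes of glucose and lactate use described here are 10 genes whose products take glucose into brain cells, start and pace its breakdown, gate the entry of pyruvate into mitochondria, and make or move lactate. They were selected by symbol as Slc2a3, Hk1, Hk2, Pfkfb3, Pdk1, Pdk2, Pdk4, Ldha, Ldhb and Slc16a1. All 10 were found in each of the 5 deposited tables, which list 24421 genes, and all 10 had reads in every library. The RNA came from the somatosensory cortex of mice collected at ZT4, zeitgeber time counted in hours from light onset. CTL-WT were undisturbed wild-type C57BL/6 mice, and SD-WT were wild-type mice whose sleep was disrupted (SD) for 8 h, from ZT20 to ZT4, by gentle handling. CTL-AcPbKO and SD-AcPbKO were homozygous AcPb-/- mice, undisturbed or after the same SD, which lack the neuron-specific form of the interleukin-1 receptor accessory protein. The labels give all mice as male and aged 2 to 3 months, from lines bred at the study's university for 5 to 7 generations. Each group had 3 libraries, and a further 4 samples of the labels were not analysed here.

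Neurons and glia share the handling of glucose in the brain. Glucose crosses the vessel wall and the membranes of glia through SLC2A1 and enters neurons mainly through SLC2A3, where hexokinases trap it as glucose phosphate. PFKFB3 makes the strongest activator of phosphofructokinase and so sets the pace of glycolysis, and it is known to be kept low in neurons and higher in astrocytes. Lactate dehydrogenases convert pyruvate and lactate into each other, SLC16A1 (MCT1) carries lactate across the membranes of endothelium and glia, and pyruvate dehydrogenase kinases switch off the entry of pyruvate into the citric acid cycle.

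Of the 12 libraries, 4 had 25352 to 39358 reads of Xist, the RNA of the inactive X chromosome, and at most 2 reads of 4 Y-linked genes, while the other 8 had 5 to 13 Xist reads and at least 5105 Y-linked reads. These 4 were CTL-WT replicates 02 and 03 and CTL-AcPbKO replicates 04 and 05, so they go against the label male and lie in control groups only. Totals on genes were 26504840 to 41615582 reads in controls and 58770286 to 71857505 reads after SD, so depth differed with SD. Markers of cortical excitatory neurons were present in every library, and their summed normalized count over 6 genes was lower after SD without overlap, at 85870 to 94192 in CTL-WT, 71321 to 83050 in SD-WT, 96465 to 100691 in CTL-AcPbKO and 80955 to 86594 in SD-AcPbKO. Of these 6, 3 fell in wild-type and 2 in AcPb-/- mice (Cux2 and Emx1 in both), and their part in the SD changes of the members was not tested. SD-AcPbKO replicate 04 stood apart in a choroid plexus marker, with 16186 normalized counts of Ttr against at most 283 elsewhere. The count of Il1rap, the gene that encodes AcPb among other forms, cannot check the deletion of 1 form, and it was 1476 to 1520 in CTL-WT and 1515 to 1647 in CTL-AcPbKO. In bulk RNA, fewer cells of a type and less RNA per cell cannot be told apart.

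Set per kilobase of annotated exon, the members spanned a wide range, from Ldhb at 14190 ± 802 normalized counts per kb to Hk2 at 32.7 ± 4.4 (mean ± standard deviation, n = 12 libraries, here and below on counts normalized over all 12). Ldha, the muscle-type lactate dehydrogenase subunit, came next at 3652 ± 423, followed by Hk1, the hexokinase of most brain cells, at 2528 ± 158. Pdk2 followed at 1670 ± 224, Slc2a3 at 1013 ± 98.2 and Pdk1 at 539 ± 34.3. The libraries of these neighbours did not overlap, from Ldhb down to Pdk1. Below Pdk1 came Slc16a1 at 358 ± 116, Pfkfb3 at 325 ± 113 and Pdk4 at 154 ± 22.2, and there the ranges of neighbours overlapped. Slc16a1 ran from 222 to 601 and Pfkfb3 from 185 to 468 counts per kb, and their order changed with SD. The level of Pfkfb3 over that of Slc16a1 was 0.331 to 0.629 in the 6 control libraries and 1.06 to 2.01 in the 6 libraries after SD. Lengths are of all annotated exons together, so levels of genes with several start sites are approximate.

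**Figure D1:**
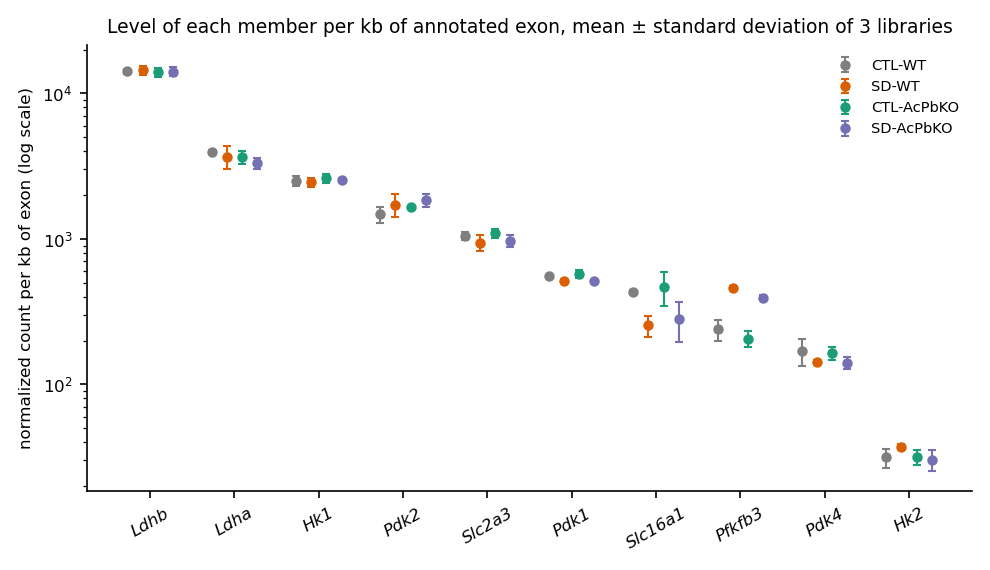
Normalized count per kb of annotated exon (log axis) for each of the 10 genes, ordered by the mean over 12 libraries; points are group means and bars standard deviations over 3 libraries of CTL-WT, SD-WT, CTL-AcPbKO and SD-AcPbKO. Ldhb stands highest at 14190 and Hk2 lowest at 32.7, and Slc16a1 and Pfkfb3 change places between control and SD groups.

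The first question was which of the 10 genes changed with SD in wild-type and in AcPb-/- mice. A gene passed when limma gave it a Benjamini-Hochberg adjusted p below 0.05, with the adjustment made over all genes tested. In each genotype Pfkfb3 rose and Slc16a1 fell, and the other 8 members did not pass. That is 2 of 10 members, where 25.4% of 20417 genes passed in wild-type mice and 27.4% of 20574 in AcPb-/- mice. By direction, 13.2% of all genes rose and 12.2% fell in wild-type mice, and 14.1% rose and 13.3% fell in AcPb-/- mice. The share of members past the threshold was thus no higher than that of all genes. The SD and control libraries did not overlap for 4 of the 10 members in wild-type and 3 of the 10 in AcPb-/- mice, against 40.2% and 42.3% of all genes. The median log2 fold change of the members was -0.065 in wild-type and -0.094 in AcPb-/- mice, beside -0.0039 and 0.014 over all genes.

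Pfkfb3 had normalized counts of 1790, 1518 and 2108 in CTL-WT replicates 01, 02 and 03 and of 3392, 3523 and 3540 in SD-WT replicates 01, 02 and 04. In AcPb-/- mice it had 1397, 1503 and 1767 in CTL-AcPbKO replicates 03, 04 and 05 and 3029, 3066 and 2872 in SD-AcPbKO replicates 02, 03 and 04. Every library after SD was above every control library of either genotype, and the libraries after SD lay closer together than the controls. The log2 fold change was 0.96 (SE 0.10, 95% interval 0.73 to 1.19, adjusted p = 0.000337 by limma) in wild-type mice and 0.95 (SE 0.088, 0.75 to 1.15, adjusted p = 0.00061) in AcPb-/- mice. As a ratio, Pfkfb3 was 1.95 times the control level in wild-type and 1.93 times in AcPb-/- mice. Among all genes it ranked 127th by p of 20417 in wild-type and 78th of 20574 in AcPb-/- mice.

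The call of Pfkfb3 did not rest on 1 library or on the libraries with Xist. With each library left out in turn, its log2 fold change stayed between 0.84 and 1.08 in wild-type and between 0.88 and 1.05 in AcPb-/- mice, and the adjusted p by limma was at most 0.00688. Without the 4 libraries with Xist, which leaves 1 control library in each genotype, it was 0.96 (adjusted p = 0.0269) in wild-type and 1.10 (adjusted p = 0.0221) in AcPb-/- mice. In that fit the lone control library was assumed to vary like the other groups.

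Pfkfb3 lies on the minus strand of chromosome 2 (GRCm38, 11471433 to 11554077), and RefSeq gives it a pair of start sites. The 250 bases before each start are shown because this is the member that rose, with capitals marking the E-box CACGTG and the hypoxia-response core (ACGTG or GCGTG), both searched on either strand. Each E-box also holds the core on both strands.
Pfkfb3 inner start, chr2:11502091-11502340, minus strand, GRCm38.p6: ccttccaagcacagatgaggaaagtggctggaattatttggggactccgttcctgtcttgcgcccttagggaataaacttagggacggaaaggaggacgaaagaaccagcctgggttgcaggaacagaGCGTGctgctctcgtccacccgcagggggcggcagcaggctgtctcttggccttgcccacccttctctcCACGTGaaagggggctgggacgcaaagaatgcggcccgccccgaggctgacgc
Pfkfb3 outer start, chr2:11553930-11554179, minus strand, GRCm38.p6: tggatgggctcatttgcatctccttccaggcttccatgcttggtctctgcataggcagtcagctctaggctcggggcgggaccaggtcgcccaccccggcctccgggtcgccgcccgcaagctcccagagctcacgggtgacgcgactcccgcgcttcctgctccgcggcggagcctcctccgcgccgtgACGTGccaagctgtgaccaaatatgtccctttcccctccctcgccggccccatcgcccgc
The inner promoter holds 1 E-box and the outer none, with 3 and 1 matches to the core. Gene counts do not say which start was used. Over 32851 RefSeq promoters of this length, 6.0% held an E-box and 38.6% the core, and of 14 promoters of 9 members 4 held an E-box and 11 the core. A match describes these letters and is no evidence that a factor binds there.

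Slc16a1 had normalized counts of 1906, 1838 and 1961 in CTL-WT replicates 01, 02 and 03 and of 1001, 1025 and 1341 in SD-WT replicates 01, 02 and 04. The wild-type groups did not overlap, and the controls lay closer together than the SD libraries. The values in AcPb-/- mice were 1612, 2659 and 1912 in CTL-AcPbKO replicates 03, 04 and 05 and 981, 1696 and 1073 in SD-AcPbKO replicates 02, 03 and 04. Here the groups overlapped, since SD-AcPbKO replicate 03 was above CTL-AcPbKO replicate 03. The log2 fold change was -0.77 (SE 0.10, 95% interval -1.0035 to -0.54, adjusted p = 0.000957 by limma) in wild-type mice and -0.73 (SE 0.23, -1.24 to -0.22, adjusted p = 0.0426) in AcPb-/- mice. SD libraries were at 0.585 times the control level in wild-type and 0.603 times in AcPb-/- mice.

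The fall of Slc16a1 kept its direction in every alternative run and lost its call in several. Without the libraries with Xist it was -0.78 (adjusted p = 0.208 by limma) in wild-type and -0.41 (adjusted p = 0.453) in AcPb-/- mice, and with a term for them -0.61 (adjusted p = 0.0939) and -0.57 (adjusted p = 0.104). In wild-type mice it passed with each library left out, at -0.91 to -0.70. It did not pass in AcPb-/- mice without CTL-AcPbKO replicate 04 (-0.53, adjusted p = 0.141), without CTL-AcPbKO replicate 05 (-0.77, adjusted p = 0.0696), without SD-AcPbKO replicate 02 (-0.58, adjusted p = 0.172) or without SD-AcPbKO replicate 04 (-0.64, adjusted p = 0.129). It also missed it by DESeq2 (adjusted p = 0.0818) and with a pseudocount of 10 (adjusted p = 0.0573).

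**Figure D2:**
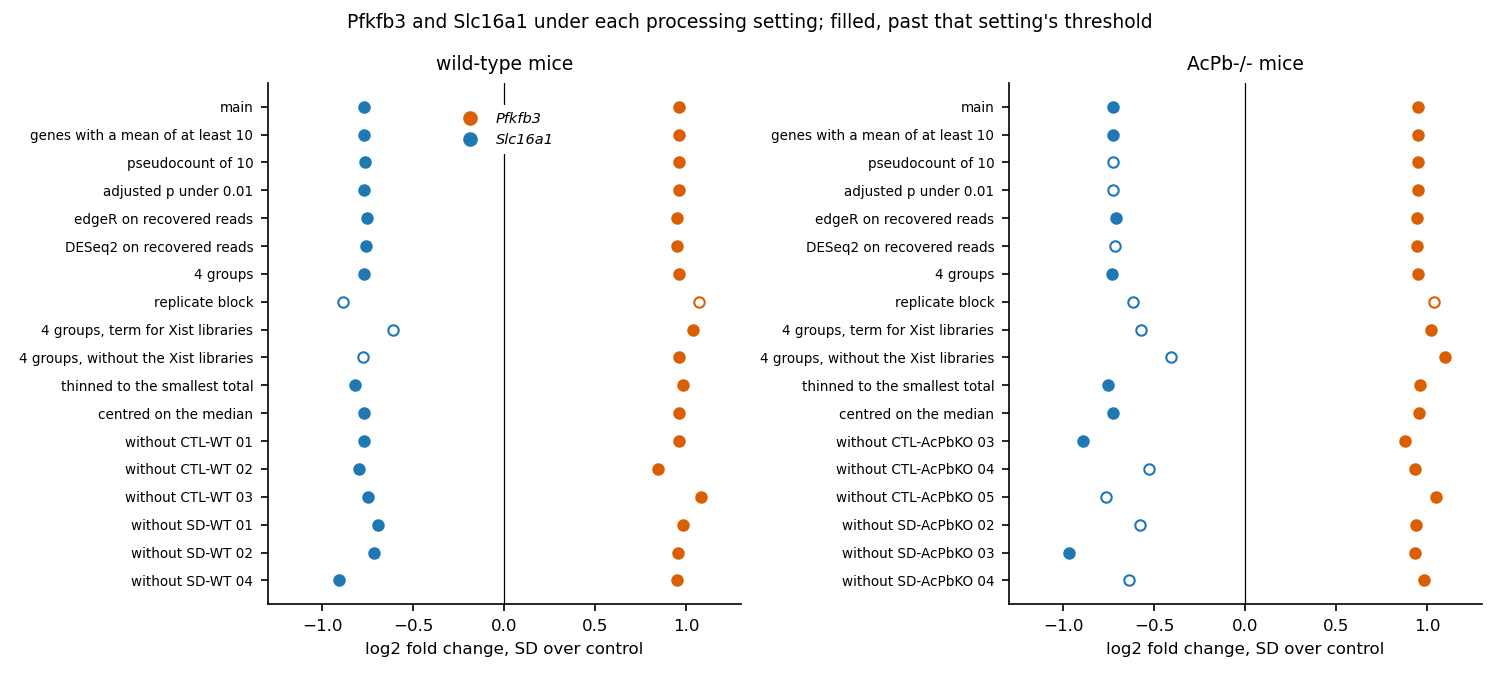
Log2 fold change of Pfkfb3 (orange) and Slc16a1 (blue), SD over control, under each processing setting (rows) in wild-type mice (left) and AcPb-/- mice (right); filled points passed that setting's threshold. Pfkfb3 stays near 0.96 and 0.95 and is open only under the replicate block, while Slc16a1 is open in more settings, most of them in AcPb-/- mice.

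SLC16A1 is found on endothelium, oligodendrocytes and astrocytes, so markers of these cells are given beside it. Of 5 endothelial markers, Flt1 and Pecam1 rose and Cldn5 fell in both genotypes. The log2 fold changes of Cldn5 were -0.38 in wild-type and -0.77 in AcPb-/- mice, and the summed level of the 5 was 10067 to 10905 in CTL-WT, 10123 to 12482 in SD-WT, 10138 to 11307 in CTL-AcPbKO and 9809 to 11770 in SD-AcPbKO. Of 5 oligodendrocyte markers, 3 fell in wild-type mice and 0 passed in AcPb-/- mice, with sums of 98928 to 124730 in CTL-WT, 81274 to 113995 in SD-WT, 48839 to 114875 in CTL-AcPbKO and 66289 to 99053 in SD-AcPbKO. The lowest of these sums belonged to CTL-AcPbKO replicate 04, which had the highest count of Slc16a1. Of 5 astrocyte markers, 2 fell in wild-type and 1 in AcPb-/- mice. Their sums overlapped, at 49987 to 58709 in CTL-WT, 51959 to 57781 in SD-WT, 49839 to 55435 in CTL-AcPbKO and 50108 to 53486 in SD-AcPbKO. The summed level of 4 meningeal fibroblast markers was also lower after SD without overlap, at 2791 to 3082 in CTL-WT, 1682 to 2646 in SD-WT, 3115 to 3585 in CTL-AcPbKO and 2047 to 2982 in SD-AcPbKO. Of these 4, Col1a1 fell in both genotypes (-0.71 and -0.58) and Col1a2 in wild-type mice (-0.79). The sum of 5 microglial markers was likewise lower after SD without overlap. It was 11987 to 12857 in CTL-WT, 10924 to 11912 in SD-WT, 11836 to 12272 in CTL-AcPbKO and 8477 to 10425 in SD-AcPbKO. Of these 5, 1 fell in wild-type and 2 in AcPb-/- mice. The part of these cells in the result was not tested.

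Slc16a1 lies on the plus strand of chromosome 3 (GRCm38, 104638668 to 104658462) and has 1 promoter in the RefSeq table, shown because this is the member that fell, with the same marking.
Slc16a1, chr3:104638414-104638663, plus strand, GRCm38.p6: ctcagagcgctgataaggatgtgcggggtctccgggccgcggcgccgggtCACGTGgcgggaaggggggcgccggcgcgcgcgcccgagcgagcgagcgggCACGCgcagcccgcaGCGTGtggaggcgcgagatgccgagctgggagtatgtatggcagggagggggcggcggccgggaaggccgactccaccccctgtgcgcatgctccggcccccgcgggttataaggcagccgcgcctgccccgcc
It holds 1 E-box and 4 matches to the core, 2 of them within the E-box. The members that rose and fell thus both had a promoter with an E-box, as did Ldha and Pdk2, which did not pass.

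Glucose entry and trapping were covered by Slc2a3, Hk1 and Hk2, and none passed in either genotype. Slc2a3, the neuronal glucose transporter, had normalized counts of 8057, 7571 and 7177 in CTL-WT and 6600, 6085 and 7735 in SD-WT, and 8131, 8316 and 7331 in CTL-AcPbKO and 6936, 6436 and 7713 in SD-AcPbKO. The SD groups were lower on average and overlapped the controls in both genotypes. The log2 fold changes were -0.17 (SE 0.086, 95% interval -0.36 to 0.026) in wild-type and -0.17 (SE 0.081, -0.36 to 0.011) in AcPb-/- mice, with adjusted p of 0.192 and 0.152 by limma. Hk1, bound to mitochondria in most brain cells, was at 21335 ± 1720.3, 20922 ± 1462, 22362 ± 1605 and 21654 ± 800.3 normalized counts in CTL-WT, SD-WT, CTL-AcPbKO and SD-AcPbKO. Its log2 fold changes of -0.028 and -0.042 had intervals of -0.20 to 0.15 and -0.21 to 0.12. Exons of Hk1 overlap those of Hk1os on the other strand, and 0.63% of its 100-base stretches occur in another gene.

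Hk2, the insulin- and stress-inducible hexokinase, was the scarcest member, with 121 to 335 reads per library. It had 204, 204 and 155 normalized counts in CTL-WT, 226, 214 and 229 in SD-WT, 181, 214 and 173 in CTL-AcPbKO, and 194, 147 and 203 in SD-AcPbKO. The SD-WT libraries lay above CTL-WT without overlap, while the AcPb-/- groups overlapped. The log2 fold change was 0.26 (SE 0.14, 95% interval -0.045 to 0.56, adjusted p = 0.198 by limma) in wild-type and -0.067 (SE 0.16, -0.44 to 0.30, adjusted p = 0.79) in AcPb-/- mice. Its sign in AcPb-/- mice turned, to 0.027, when libraries were thinned to the smallest total of reads on genes.

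The pyruvate dehydrogenase kinases, which inactivate pyruvate dehydrogenase by phosphorylation, did not pass in either genotype. Pdk1, the hypoxia-inducible kinase, was at 4228, 4242 and 4409 in CTL-WT and 4135, 3869 and 4011 in SD-WT, and at 4164, 4730 and 4582 in CTL-AcPbKO and 4061, 3986 and 3891 in SD-AcPbKO, all as normalized counts. In both genotypes each SD library was below each control library, by little. The log2 fold changes were -0.10 (SE 0.056, 95% interval -0.22 to 0.022, adjusted p = 0.216 by limma) and -0.17 (SE 0.063, -0.31 to -0.027, adjusted p = 0.0769). Pdk1 did pass in AcPb-/- mice when all 4 groups were fitted together (-0.17, adjusted p = 0.0286) and without CTL-AcPbKO replicate 03 (-0.22, adjusted p = 0.0267).

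Pdk2, the most abundant of these kinases per kilobase, had normalized counts of 5272, 4517 and 4175 in CTL-WT, 5961, 6042 and 4289 in SD-WT, 5285, 5029 and 5297 in CTL-AcPbKO, and 6505, 5644 and 5380 in SD-AcPbKO. SD libraries were higher apart from SD-WT replicate 04, and the AcPb-/- groups did not overlap. The log2 fold changes were 0.21 (SE 0.13, adjusted p = 0.264 by limma) in wild-type and 0.17 (SE 0.076, adjusted p = 0.145) in AcPb-/- mice. Pdk4, the kinase induced by fasting and fatty acids, was at 738, 561 and 496 in CTL-WT, 508, 488 and 510 in SD-WT, 518, 636 and 560 in CTL-AcPbKO, and 451, 550 and 487 in SD-AcPbKO. The groups overlapped, with log2 fold changes of -0.23 (SE 0.13, adjusted p = 0.221) and -0.20 (SE 0.11, adjusted p = 0.217). The value of Pdk4 in wild-type mice depended on single libraries, at -0.073 without CTL-WT replicate 01 and -0.36 without CTL-WT replicate 03, and without the libraries with Xist it was -0.56 (adjusted p = 0.0652) in wild-type and -0.064 in AcPb-/- mice. Of the summed level of these 3 kinases per kilobase, Pdk2 made up 65.1% to 68.9% in CTL-WT, 67.2% to 75.0% in SD-WT, 66.8% to 71.0% in CTL-AcPbKO and 72.7% to 76.0% in SD-AcPbKO. Pdk1 made up 19.3% to 27.9% and Pdk4 4.74% to 8.68% over the libraries. The sum leaves out Pdk3, at 500 normalized counts per kb over the 12 libraries. These are therefore not shares of all pyruvate dehydrogenase kinase RNA.

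The lactate dehydrogenase subunits did not pass. Ldha, whose product favours lactate formation, had normalized counts of 13466, 12777 and 13152 in CTL-WT, 11057, 10775 and 14729 in SD-WT, 12894, 12505 and 10649 in CTL-AcPbKO, and 10001, 11100 and 11947 in SD-AcPbKO. SD-WT replicate 04 was the highest of all 12 libraries and the other SD-WT replicates were below every CTL-WT library. The log2 fold changes were -0.12 (SE 0.10, 95% interval -0.36 to 0.11, adjusted p = 0.439 by limma) and -0.12 (SE 0.092, -0.33 to 0.088, adjusted p = 0.378). Ldhb, the heart-type subunit that predominates in neurons, was at 22310 ± 907, 22700 ± 1619, 21918 ± 1471 and 22184 ± 1622 normalized counts in CTL-WT, SD-WT, CTL-AcPbKO and SD-AcPbKO. Its log2 fold changes were 0.023 (-0.14 to 0.18) and 0.020 (-0.16 to 0.20), the smallest differences among the members by size. The level of Ldha over Ldhb per kilobase was 0.275 to 0.283 in CTL-WT, 0.21 to 0.33 in SD-WT, 0.217 to 0.301 in CTL-AcPbKO and 0.211 to 0.277 in SD-AcPbKO, so the SD-WT range enclosed that of CTL-WT. Of the 100-base stretches of Ldhb 6.44% also occur in Gm5514, which makes its count less certain, against 0.59% for Ldha.

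SD-WT replicate 04 decided the calls of 3 members in wild-type mice. Without it Slc2a3 was lower after SD (log2 fold change -0.26, adjusted p = 0.0133 by limma), Ldha was lower (-0.27, adjusted p = 0.00449) and Pdk2 was higher (0.37, adjusted p = 0.011). With Pfkfb3 and Slc16a1, 5 of 10 members then passed, where the same fit called 30.7% of 20249 genes, against 25.4% with all libraries. Among AcPb-/- mice no member other than Pdk1, Pfkfb3 and Slc16a1 passed in any alternative.

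**Figure D3:**
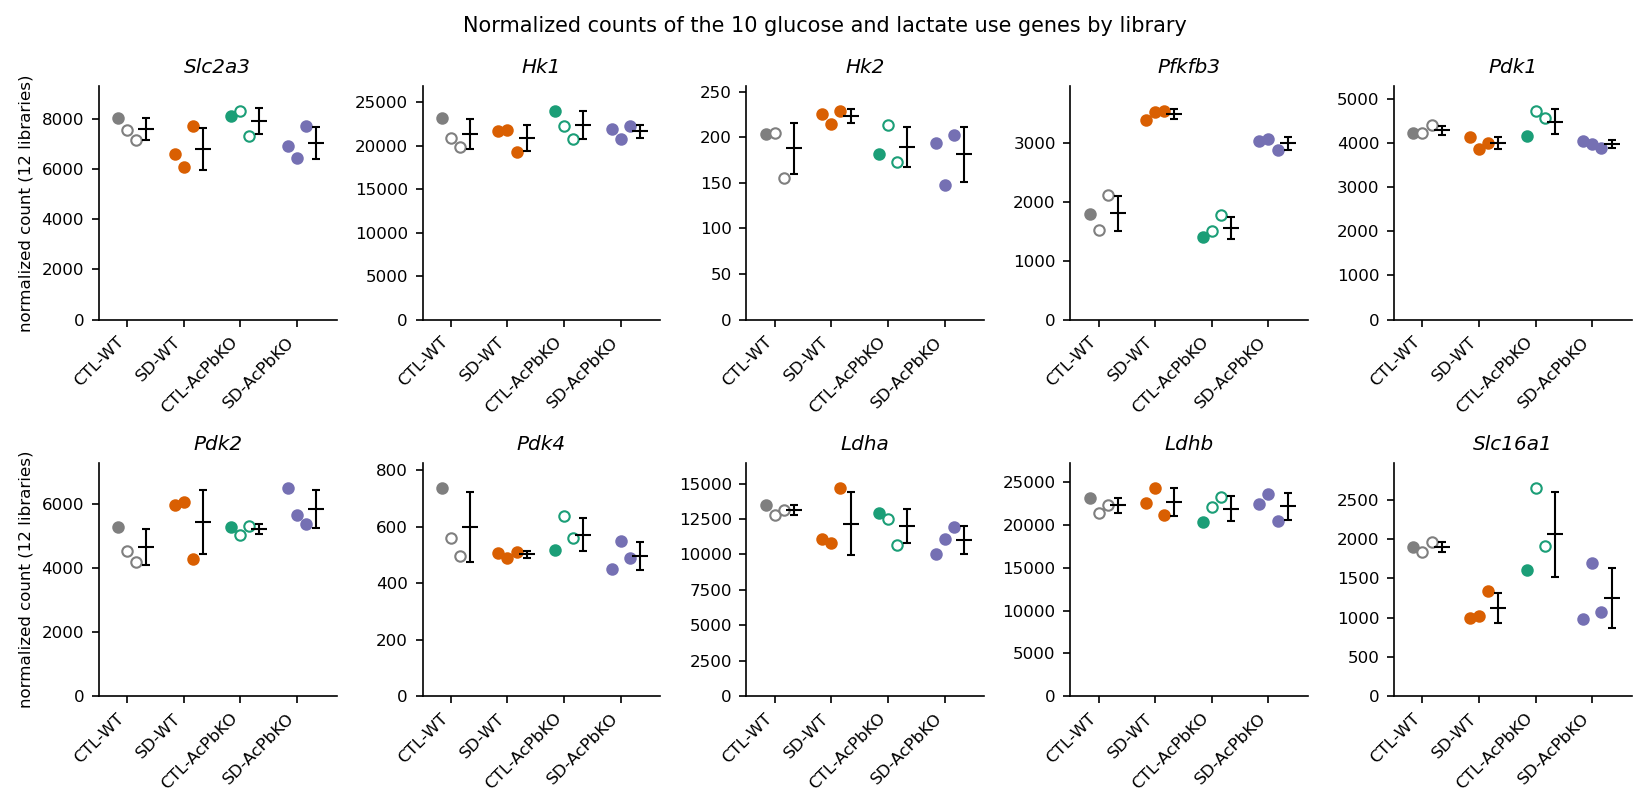
Normalized counts (linear axes from 0, normalized over 12 libraries) of the 10 genes in each library of CTL-WT, SD-WT, CTL-AcPbKO and SD-AcPbKO; open circles are the 4 libraries with Xist, and black bars give the mean ± standard deviation of 3 libraries. Pfkfb3 is above every control library in the 6 libraries after SD, Slc16a1 is lower after SD with 1 high library in each AcPb-/- group, and the remaining genes overlap or differ by little.

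The members did not move as 1 block within groups. Over the 12 libraries, after taking away each group's mean of the log2 values, the 45 pairs of members had a median correlation of 0.13 and ranged from -0.75 to 0.81. Slc2a3 and Ldha had the highest, 0.81, and Pdk2 and Ldha the lowest, -0.75, followed by Slc2a3 and Ldhb at -0.75. These are descriptions over n = 12 libraries that share depth and dissection, and SD-WT replicate 04, high in Slc2a3 and Ldha and low in Pdk2, is 1 of them.

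The next question was whether AcPb-/- and wild-type mice differed. Among undisturbed mice 0 of 10 members passed, where 0.0197% of 20273 genes did, and after SD 0 of 10 passed, where 0.0145% of 20621 genes did. The adjusted p by limma was at least 0.622 and 0.483, and edgeR and DESeq2 on recovered reads also gave 0 members in each comparison. At an unadjusted p under 0.05 there were 0 members among undisturbed mice, where 8.53% of all genes were, and 1 after SD, where 6.13% were. That member was Pfkfb3, at 2872 to 3066 normalized counts in SD-AcPbKO against 3392 to 3540 in SD-WT, a log2 fold change of -0.22 (SE 0.059, 95% interval -0.35 to -0.091, adjusted p = 0.483). It was lower by a like size among undisturbed mice, at -0.21 (SE 0.12, -0.48 to 0.062, adjusted p = 0.658), with overlapping libraries. Hk2 was also lower after SD, at -0.31 (SE 0.14, -0.63 to 0.0066, adjusted p = 0.825 by limma). For the other 8 members the lowest interval end after SD was -0.40, for Ldha, and the highest was 0.55, for Slc16a1. Differences within a gene's own interval are not excluded.

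The last comparison asked whether the SD effect differed between genotypes. It was tested as the interaction in 1 limma fit of all 12 libraries, where 0 of 10 members and 0.0% of 20978 genes passed. At an unadjusted p under 0.05 there were 0 members and 839 genes (4.0%), and over all genes edgeR called 0 and DESeq2 1. The difference in log2 fold change, AcPb-/- minus wild-type, was -0.013 for Pfkfb3 (95% interval -0.33 to 0.31) and 0.040 for Slc16a1 (-0.58 to 0.66). The largest by size was that of Hk2, -0.33 (-0.79 to 0.14, adjusted p = 0.986). The intervals leave room for differences of these sizes, and they do not show that the genotypes responded alike.

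**Figure D4:**
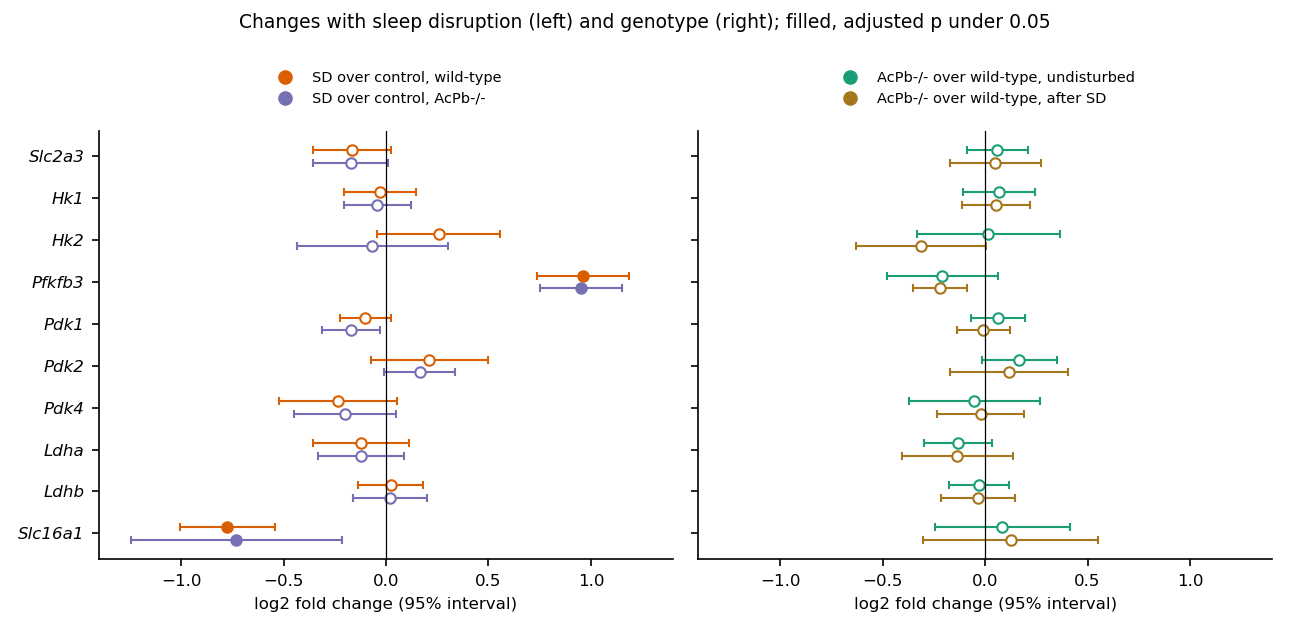
Log2 fold change with 95% interval of each of the 10 genes, SD over control in both genotypes (left) and AcPb-/- over wild-type in both conditions (right); filled points have an adjusted p under 0.05 by limma. Pfkfb3 (0.96 and 0.95) and Slc16a1 (-0.77 and -0.73) are filled on the left, and no point is filled on the right.

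Around the members, 69 other genes of transport, glycolysis, pyruvate and lactate handling, glycogen and the pentose phosphate pathway, with 10 regulators of these among them, were followed. With SD 7 rose and 15 fell in wild-type mice, 31.9% of the list where 25.4% of all genes passed. In AcPb-/- mice 8 rose and 13 fell, 30.4% of the list where 27.4% of all genes passed. Their median log2 fold change was -0.030 in wild-type and -0.012 in AcPb-/- mice. In both genotypes 18 passed in the same direction, 5 higher and 13 lower, or 26.1% of the list, where 19.3% of the 20013 genes tested in both did, 10.2% higher and 9.16% lower. No test of the list against all genes was made. Of these 18, 15 passed in both with a term for the libraries with Xist, and 5 (Slc2a8, Emb, Pfkm, Pdp1 and Ppp1r3c) without those libraries.

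Relatives and partners of the members were compared first. Slc16a3 (MCT4), the lactate exporter of glycolytic cells and a relative of Slc16a1, fell, with a log2 fold change of -0.82 (adjusted p = 0.0161 by limma) in wild-type and -1.11 (adjusted p = 0.00787) in AcPb-/- mice. The wild-type call was lost without CTL-WT replicate 01 (-0.71, adjusted p = 0.0525), SD-WT replicate 01 (-0.79, adjusted p = 0.06) or SD-WT replicate 02 (-0.64, adjusted p = 0.0659). Slc16a3 is scarce, at 140 to 177 normalized counts in CTL-WT and 66.4 to 115 in SD-WT. Slc16a7 (MCT2), the neuronal carrier, did not pass, at -0.030 and -0.023, nor did Bsg, the partner protein of MCT1 and MCT4, at -0.038 and -0.041. Emb, the partner protein mainly of MCT2, rose by 0.33 and 0.46. Slc2a1, the glucose transporter of the vessel wall, rose in wild-type mice (0.33, adjusted p = 0.026) and was at 0.15 (adjusted p = 0.257) in AcPb-/- mice. The wild-type call of Slc2a1 was lost without CTL-WT replicate 01 (0.24), SD-WT replicate 01 (0.27) or SD-WT replicate 02 (0.31), with adjusted p of 0.0753 to 0.112. With a term for the libraries with Xist, Slc2a1 passed in wild-type (0.52, adjusted p = 0.00304 by limma) and AcPb-/- mice (0.34, adjusted p = 0.0172). That was the 1 of 17 alternatives in which it passed in AcPb-/- mice. Its counts were 3771 to 4641 in CTL-WT, 4852 to 5879 in SD-WT, 3812 to 4906 in CTL-AcPbKO and 4634 to 5131 in SD-AcPbKO, and the difference of the SD effect between the genotypes did not pass (-0.18, adjusted p = 0.986 by limma). Slc2a8, an intracellular hexose transporter, fell by 0.67 and 0.75 on the log2 scale, from 1210 to 1269 counts in CTL-WT to 774 to 786 in SD-WT.

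Beside Pfkfb3, none of the related Pfkfb1, Pfkfb2, Pfkfb4 and Tigar passed as higher in either genotype. Tigar did lie above its controls in AcPb-/- mice, at 1573 to 1655 counts in CTL-AcPbKO and 1715 to 2026 in SD-AcPbKO. In wild-type mice it overlapped, at 1681 to 1938 in CTL-WT and 1759 to 1991 in SD-WT. Pfkfb2 was at -0.059 and -0.041 and did not pass, and Pfkfb4 fell in wild-type mice (-0.23, adjusted p = 0.0327 by limma) and was at -0.31 (adjusted p = 0.0542) in AcPb-/- mice. With 1 library left out, Pfkfb4 passed in wild-type mice only without SD-WT replicate 04, and otherwise ran from -0.25 to -0.20 with adjusted p of 0.0602 to 0.125. In AcPb-/- mice it then passed without CTL-AcPbKO replicate 04 (-0.41) or SD-AcPbKO replicate 03 (-0.37). Over all 17 alternatives Pfkfb4 passed in 7 in wild-type and 8 in AcPb-/- mice. A term for the libraries with Xist was among the latter (-0.38, adjusted p = 0.019 by limma). The 3 phosphofructokinase subunits, whose enzyme responds to the product of PFKFB3, changed in different directions. Pfkm fell by 0.43 and 0.45, from 21814 to 23085 counts in CTL-WT to 16396 to 16654 in SD-WT, and Pfkl fell by 0.33 and 0.31, the latter not called without CTL-AcPbKO replicate 04 (-0.30) or SD-AcPbKO replicate 02 (-0.27). Pfkp, the platelet-type subunit, rose by 0.28 and 0.44, from 13385 to 14704 counts in CTL-WT to 16024 to 18408 in SD-WT. Its wild-type call was lost without CTL-WT replicate 02 (0.24), SD-WT replicate 01 (0.28) or SD-WT replicate 02 (0.22), and with a term for the libraries with Xist (0.19, adjusted p = 0.0972 by limma). Further down glycolysis Gapdh rose by 0.32 and 0.38 and Pgam1 fell by 0.30 and 0.28. Since 20.9% and 33.9% of their 100-base stretches occur in pseudogenes, counts of Gapdh and Pgam1 are uncertain, and the call of Pgam1 in AcPb-/- mice was lost without CTL-AcPbKO replicate 04 (-0.25).

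At the pyruvate step, Pdk3 was at 0.071 and 0.077 and did not pass. Pdp1, the phosphatase that reverses what the kinases do, rose by 0.69 (adjusted p = 0.00083 by limma) and 0.54 (adjusted p = 0.04997), the latter just inside the threshold, and it was named after its values were seen. In AcPb-/- mice Pdp1 was at 0.30 without CTL-AcPbKO replicate 03, and it was not called without CTL-AcPbKO replicate 04 (0.64), SD-AcPbKO replicate 02 (0.47), SD-AcPbKO replicate 03 (0.58) or SD-AcPbKO replicate 04 (0.57). Its normalized counts were 8829 to 11514 in CTL-WT and 15871 to 16422 in SD-WT, and 6552 to 10984 in CTL-AcPbKO and 12510 to 14458 in SD-AcPbKO. Mpc2, a subunit of the mitochondrial pyruvate carrier, fell by 0.64 and 0.70. Mpc1, the other subunit, was also named after its values were seen, and it passed as higher in AcPb-/- mice only. Its normalized counts were 1547 to 1866 in CTL-WT, 1769 to 2683 in SD-WT, 1498 to 1844 in CTL-AcPbKO and 2072 to 2651 in SD-AcPbKO. Of the 100-base stretches of Mpc1 16.6% also occur in other genes, so its count is uncertain. Pcx, the pyruvate carboxylase of astrocytes, fell by 0.46 and 0.54. In glycogen handling Ppp1r3c, which directs a phosphatase to glycogen and favours its synthesis, rose by 0.42 and 0.42, the latter not called without SD-AcPbKO replicate 02 (0.37), while Pygb, the brain glycogen phosphorylase, fell by 0.33 and 0.35. Pgls of the pentose phosphate pathway fell by 0.38 and 0.59, with 17.3% of its stretches shared with Fam129c.

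**Figure D5:**
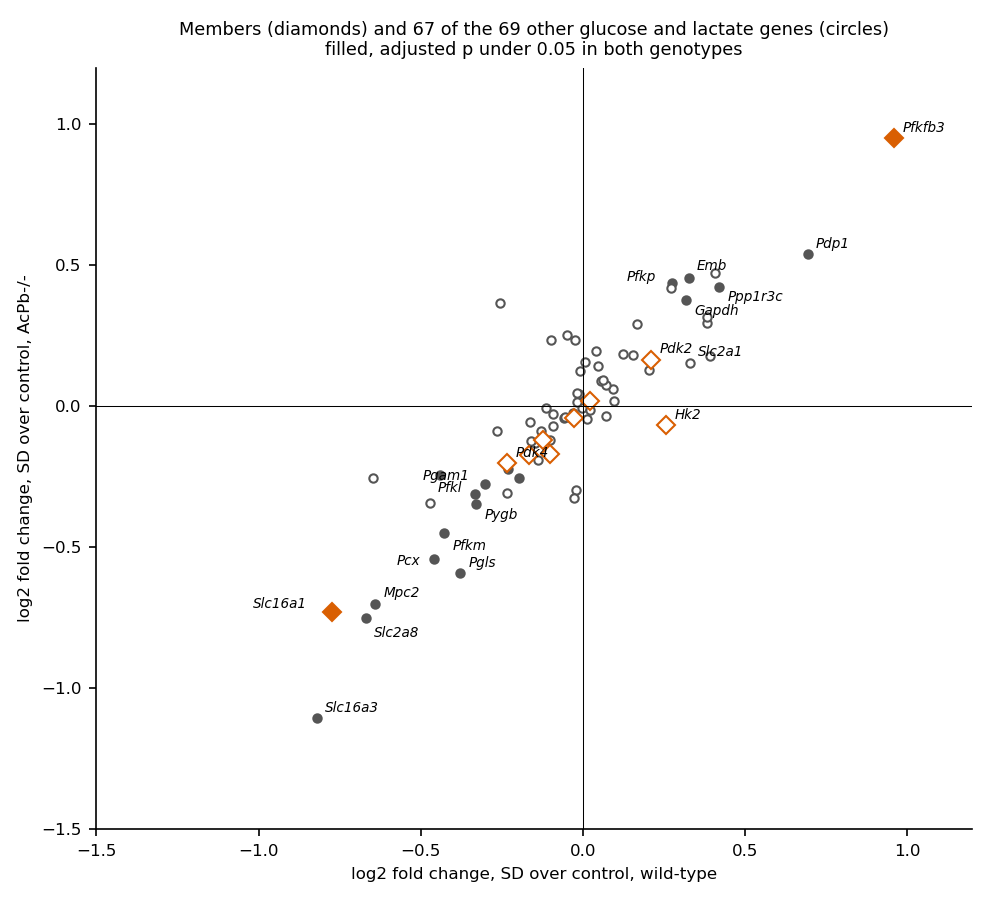
Log2 fold change with SD in wild-type mice (horizontal) against AcPb-/- mice (vertical) for the 10 members (orange diamonds) and 67 of the 69 other genes (circles); Ldhc, with at most 5.2 normalized counts in a library, and 1 gene not reported here are left out. Filled symbols passed in both genotypes. Pfkfb3 stands farthest to the upper right, and Slc16a1 lies with Slc2a8 and Mpc2 at the lower left, above Slc16a3.

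Outside these lists, the genes whose log2 counts followed Pfkfb3 most closely over the 12 libraries were Fam111a (Pearson r = 0.99), Tgfb3 (r = 0.98) and Zfp946 (r = 0.98), among 12407 genes with a mean of at least 100. Those nearest to Slc16a1 were Aldh1a2 (r = 0.95), Prkcdbp (r = 0.94) and Pcdhb9 (r = 0.94). With SD, Tgfb3, a transforming growth factor, changed by 0.64 and 0.77, and Aldh1a2, which makes retinoic acid, by -0.54 in wild-type and -0.54 in AcPb-/- mice, the latter at an adjusted p of 0.0557 by limma. These values describe n = 12 libraries in which SD and depth move together.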

How the data were processed

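The 10 genes, the list of related genes and the marker lists were chosen with earlier results of these data known. Per the labels, RNA was extracted with QIAGEN reagents, libraries were made with a stranded mRNA kit, and the submitters' processing notes name bcl2fastq, HISAT2 2.2.1, featureCounts, DESeq2 1.31.16 and mm10; the study's methods name HTSeq for counting. The annotation and strand setting are not given in the sources used here. The deposited values are signal, read counts divided by the DESeq2 size factor of each library, in 5 tables of pairs of groups. Columns with the authors' mean, log2 fold change, its standard error, statistic, p-value and adjusted p-value were not used. Undoing the size factors gave whole reads for 100.0% of 732630 values (within 0.01), and 0 counts differed between tables.

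Each pair of groups was compared with limma 3.58.1 (R 4.3.3) on log2(normalized count + 1) and a variance trend. Genes without a read in the compared libraries were left out, and a fold change of a low gene is understated. The interaction used all 12 libraries, normalized together by median ratios. Each limma p-value sets a difference against the spread between libraries within groups, with that spread moderated across genes. Named genes were the 10 members, at most 12 of the related genes that passed in both SD comparisons in the same direction, by the sum of their ranks of p, Slc2a1, Slc16a3, Slc16a7, Bsg, Pdk3, Pfkfb2 and Pfkfb4, and, for each member called in both, the 3 genes with the highest Pearson correlation over 12 libraries. GENCODE M21 gave lengths and positions by gene symbol, and promoters come from RefSeq (GRCm38.p6), where Slc2a3 was not matched. Alternatives were a mean of at least 10, a pseudocount of 10, an adjusted p under 0.01, edgeR 4.0.16 and DESeq2 1.42.0 run on the recovered reads, a single fit of the 4 groups, a block for the replicate number, a term for the libraries with Xist reads or their omission, thinning to the smallest total, centring on the median, and each library left out. Simulated counts with 200 changed genes were run through limma, edgeR and DESeq2 for both SD comparisons and the interaction. The genotype comparisons and the other alternatives were not simulated.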

Additional observations from a re-analysis of the deposited data

How the results depend on the processing

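With SD, Pfkfb3 kept its call in every alternative other than the replicate block, and Slc16a1 kept its direction in all. In wild-type mice, where 2 members passed, 0 passed with the replicate block, 1 with a term for the libraries with Xist and 1 without those libraries, and 2 to 5 with 1 library left out. In AcPb-/- mice, where 2 passed, 1 passed with a pseudocount of 10, at an adjusted p under 0.01, by DESeq2, with the Xist term and without those libraries, 0 with the replicate block, and 1 to 3 with 1 library left out. Of the 69 related genes, 22 passed in wild-type mice, against 14 at an adjusted p under 0.01, 0 with the block, 8 without the libraries with Xist and 14 to 30 with 1 library left out, with 14 without SD-WT replicate 01 and 30 without SD-WT replicate 04. In AcPb-/- mice 21 passed, against 10 at 0.01, 0 with the block, 8 without the libraries with Xist and 14 to 22 with 1 library left out. No member passed between genotypes or in the interaction under any alternative. Over all genes the 5186 calls in wild-type mice became 2360 at 0.01, 0 with the block, 687 without the libraries with Xist and 2699 to 6222 with 1 left out, and the 5633 in AcPb-/- mice became 2656, 0, 2097 and 3393 to 5412. The drops past 1.5 times came without CTL-WT replicate 02 (2699), SD-WT replicate 01 (2941) or SD-WT replicate 02 (2836), and without CTL-AcPbKO replicate 04 (3417), SD-AcPbKO replicate 02 (3393) or SD-AcPbKO replicate 04 (3575). The 4 calls among undisturbed mice ran from 0 to 168, the 3 after SD from 0 (with the block) to 97 (by DESeq2), and the 0 of the interaction from 0 to 9, with 168 and 9 reached without CTL-AcPbKO replicate 03. The fit without the libraries with Xist has 1 control library per genotype, and other causes of these changes were not tested.

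The replicate block rests on numbers shared by 2 libraries in each SD comparison, which leaves 1 residual degree of freedom; between undisturbed genotypes only 1 number is shared and the block could not be fitted. Deviations of same-numbered libraries from their group means correlated at 0.10 and -0.075 in wild-type and at -0.14 and -0.018 in AcPb-/- mice. After SD between genotypes they correlated at 0.22 and 0.23, above all pairs with unlike numbers there (at most 0.10). The labels give no batch and the study names no block, so the main fits did not take the numbers as pairs.

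Log2 fold changes near 0 changed sign without passing. With SD in wild-type mice, Hk1 ran from -0.075 to 0.035 and Ldhb from -0.032 to 0.072 with 1 library left out. Without the libraries with Xist, Ldhb was -0.033. With SD in AcPb-/- mice, Hk1 ran from -0.093 to 0.010, Hk2 from -0.15 to 0.076 and Ldhb from -0.033 to 0.078 with 1 library left out. After thinning, Hk2 was 0.027. Between undisturbed genotypes, Hk2 ran from -0.12 to 0.082, Pdk4 from -0.18 to 0.11, Ldhb from -0.072 to 0.023 and Slc16a1 from -0.11 to 0.24 with 1 library left out. Without the libraries with Xist, Hk2 was -0.17, Pdk1 -0.024 and Slc16a1 -0.24. After thinning, Hk2 was -0.010. Between genotypes after SD, Slc2a3 ran from -0.028 to 0.15, Hk1 from -0.0078 to 0.083, Pdk1 from -0.034 to 0.013, Pdk2 from -0.043 to 0.20, Pdk4 from -0.10 to 0.046, Ldha from -0.22 to 0.010, Ldhb from -0.082 to 0.022 and Slc16a1 from -0.12 to 0.28 with 1 library left out. With the replicate block, Pdk1 was 0.012 and Slc16a1 -0.19. In the interaction, Slc2a3 ran from -0.088 to 0.086, Hk1 from -0.081 to 0.035, Pfkfb3 from -0.13 to 0.11, Pdk2 from -0.21 to 0.037, Pdk4 from -0.13 to 0.15, Ldha from -0.087 to 0.14, Ldhb from -0.059 to 0.052 and Slc16a1 from -0.20 to 0.24 with 1 library left out. With the replicate block, Slc2a3 was 0.035, Pfkfb3 0.10 and Ldha 0.033. Without the libraries with Xist, Slc2a3 was 0.039, Hk1 0.0078, Pfkfb3 0.14, Pdk1 0.016, Pdk2 0.12 and Ldhb 0.16. After thinning, Pdk4 was -0.070 and Ldha 0.027. After centring on the median, Ldha was 0.0012.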
